A study of Mus musculus with 6 samples.

Results

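Untreated mouse embryonic stem cells (mESC) were compared with the same line after 24 hours in 3 µM CHIR99021 (CHIR), a small-molecule inhibitor of the kinase GSK3. The comparison was defined by the sample labels alone and rests on 2 of the 6 arrays in the study, 1 array a side, with 22180 genes measured on both. The cells were EB3 mESC, an established line, kept in the serum-free base medium N2B27 with LIF and BMP4, and both arms carried these factors. The other 4 arrays were mESC given CHIR with 1 µM of the MEK inhibitor PD0325901 (PD) for 24 hours, and epiblast-like cells (EpiLC) in the same 3 states. The EpiLC were derived from EB3 mESC by 2 days on serum-coated dishes in N2B27 to which Activin A (20 ng/ml) and bFGF (12 ng/ml) were added. All cells came from 1 line, and no group had a replicate, so no difference below has an error, a standard deviation or a test. The number of arrays limits the precision throughout, and differences are given as sizes and counts.

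GSK3 phosphorylates β-catenin and marks it for destruction together with the scaffold Axin and the tumour suppressor APC. When GSK3 is inhibited, β-catenin accumulates, enters the nucleus and binds the TCF/LEF factors, which turns Wnt target genes on and relieves repression by TCF7L1. In mouse ES cells this relief is known for supporting self-renewal, and in the epiblast Wnt signalling is known for inducing the primitive streak and posterior identity.

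Values are normalised array intensities on a linear scale with a lowest value of 16. A log2 difference is the log2 intensity with CHIR minus that without, and intensities of different genes cannot be ranked against each other. The array medians, taken over every probe set, ran from 60.55 to 65.17, with untreated mESC at 65.17 and CHIR at 64.57. The label was checked against ES cell markers. The naive ES cell gene Zfp42 (Rex1) had an intensity of 2569 in untreated mESC, 2619 with CHIR and 327 in untreated EpiLC. Esrrb, another naive factor, stood at 357, 467 and 22.5 on those 3 arrays, while the EpiLC gene Fgf5 stood at 36.0, 35.6 and 1258.5. Both mESC arrays therefore carried the marker pattern of their label.

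With CHIR, 41 genes were at least 2-fold higher (0.185% of those measured) and 34 were at least 2-fold lower (0.153%). The 5 largest positive differences were those of the mesendoderm factor Mixl1, the caudal homeobox gene Cdx1, the choline-breakdown enzyme gene Dmgdh, the Wnt target Sp5 and Hoxb1. The lower genes were led by Spic, the epiblast factor Otx2 and Coch. At 1.5-fold the counts were 323 higher (1.46%) and 216 lower (0.974%), and 97.6% of genes lay within 1.5-fold. The log2 differences of all genes had a median of -0.002 and a standard deviation over genes of 0.23. A further setting subtracted 16 from every intensity and added a constant of 64. It shrinks differences, most of all those of dim genes, and treats 16 as an offset, which was not tested. With it, 11 genes passed 2-fold upward and 16 downward. The higher share of the genes past 2-fold then went from 54.7% to 40.7%. Of the 75 genes past 2-fold, 72 were read by 1 probe set. The other 3, Axin2, Nkx1-2 and Bcl11a, had 2 probe sets each, of which 1 in each pair was under 2-fold.

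**Figure D1:**
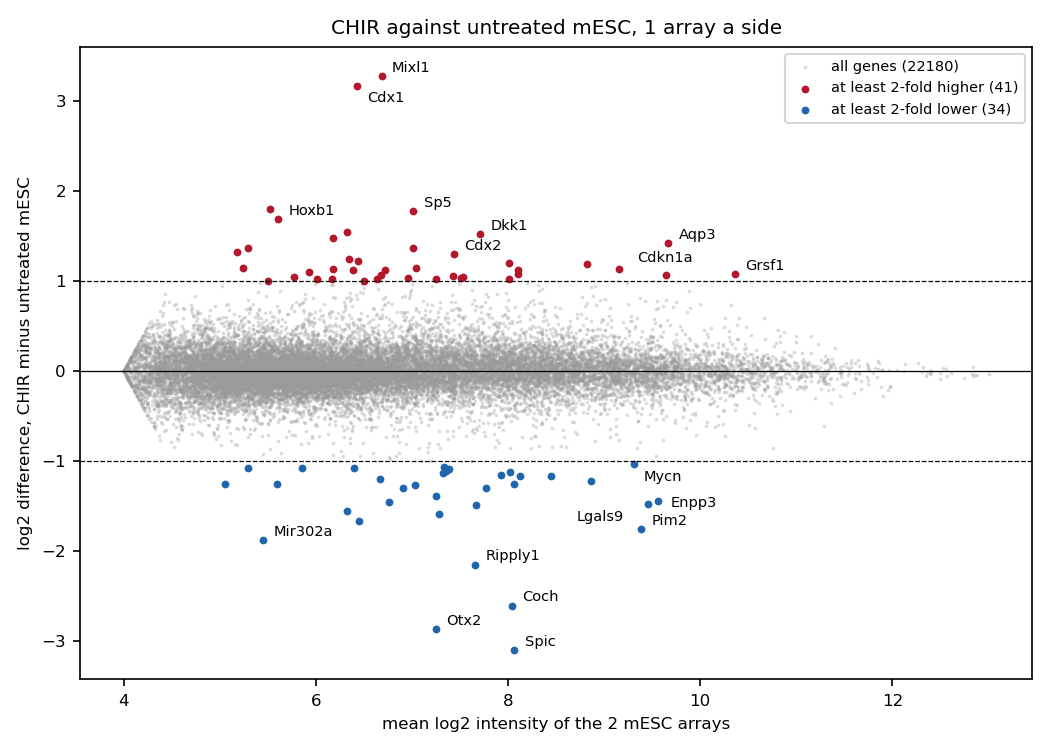
Log2 difference (CHIR minus untreated mESC, y axis) against the mean log2 intensity of both arrays (x axis) for the 22180 genes, 1 point a gene. The 41 red and 34 blue points lie past the dashed 2-fold lines, and 97.6% of all genes differ by less than 1.5-fold.

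The targets and feedback genes of the pathway had the highest median of the 30 gene lists examined. The caudal Hox and Cdx list was higher, at 0.86 against 0.46, over genes at or above the median intensity alone. Those genes were taken by their mean log2 intensity over all 6 arrays, EpiLC with CHIR included. Of 23 measured Wnt targets and feedback genes, 18 were higher and 5 lower. At least 2-fold higher were 6, beside 0.185% of all genes, and none was at least 2-fold lower. The list's median log2 difference was 0.51, beside -0.002 over all genes. Cdx1, a homeobox gene that Wnt signalling switches on directly in the posterior embryo, went from an intensity of 28.6 to 258, a log2 difference of 3.17. Sp5, a zinc-finger factor and one of the most general Wnt targets, went from 69.8 to 239, a log2 difference of 1.78. Dkk1, a secreted antagonist that binds the co-receptors LRP5 and LRP6, went from 124 to 355 (log2 difference 1.52). All 3 stayed at least 2-fold higher under the other constants and normalisations tried, and with a constant of 64 Cdx1 stood at 2.00 and Sp5 at 1.29.

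Cdx2, the caudal gene best known from trophoblast and the tail bud, went from 111 to 273, a log2 difference of 1.30. Tnfrsf19 (Troy), a death-receptor family member and Wnt target, went from 129 to 267 (log2 difference 1.05). Axin2, the inducible scaffold of the destruction complex and a standard reporter gene of the pathway, went from 182 to 368, a log2 difference of 1.02. Axin2 was thus close to the threshold. Its brighter probe set gave a log2 difference of 1.33 and its dimmer one 0.72, and the gene lay just under 2-fold after quantile normalisation (1.00 when rounded) and at 0.87 with a constant of 64. Tnfrsf19 stood at 0.83 with that constant.

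Other inhibitors that the pathway induces against itself were higher by less than 2-fold. The Dishevelled-binding protein Nkd1 went from 46.1 to 74.1 (log2 difference 0.68), and the membrane inhibitor Apcdd1 from 62.0 to 94.6 (0.61). The ubiquitin ligases Rnf43 and Znrf3, which remove Frizzled receptors from the surface, had log2 differences of 0.51 and 0.40. Notum, an enzyme that strips the lipid from Wnt proteins, differed by 0.16 and Nkd2 by 0.21. Lgr5, an R-spondin receptor, had a mean log2 difference of 0.54, but its probe sets disagreed, at -0.17 and 1.25. Cd44, an adhesion receptor, differed by 0.80, Lef1 by 0.53, Cdx4 by 0.50, the zinc-finger gene Sp8 by 0.23 and Ccnd1, which encodes cyclin D1, by 0.11.

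The 5 lower members include textbook targets. Myc, the growth-promoting transcription factor, went from 710 to 439, a log2 difference of -0.69. Ascl2, a basic helix-loop-helix factor of intestinal stem cells and trophoblast, went from 293 to 181 (-0.69). The receptor gene Fzd7 went from 398 to 270 (log2 difference -0.56). The secreted inhibitor Wif1 and the pseudoreceptor Bambi differed by -0.23 and -0.12.

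The promoters of the induced targets are shown because TCF/LEF factors bind DNA at a core that reads CTTTGA on one strand and TCAAAG on the other. Both spellings were searched in RefSeq promoters (build GRCm38.p6), each running from 250 bases before to 50 bases after a gene's start. Of the genes at least 2-fold higher, 33 of 41 had such a promoter and 6 of these 33 (18.2%) held the motif. Among genes at least 2-fold lower, 25 of 34 had a promoter and 3 of the 25 (12%) held it. The share was 16.7% of the 16990 measured genes with a promoter and 16% of all promoters. In the Wnt target list 5 of 15 genes (33.3%) held it, and of the 5 with a promoter among its members at least 2-fold higher, 3 did. These were Sp5, Dkk1 and Tnfrsf19. The other matches among the genes at least 2-fold higher were in St8sia6, Accsl and Olfr392, which are not in that list. No match was found in the windows of Axin2 and Cdx2, and Cdx1 was not matched to a promoter. A match is a description of letters and not a measured binding site.

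The matches in the promoters of Sp5, Dkk1 and Tnfrsf19 are printed 5′ to 3′ on the gene's strand with 40 bases on either side and the motif in capitals. In Sp5 (plus strand, chr2:70474679-70474764 and chr2:70474779-70474864) the motif began 204 and 104 bases before the gene start. In Dkk1 (minus strand, chr19:30549568-30549653 and chr19:30549625-30549710) it began 117 and 174 bases before the start, once in each spelling. In Tnfrsf19 (minus strand, chr14:61038143-61038228) it began 201 bases before the start.
Sp5, at 204 bases: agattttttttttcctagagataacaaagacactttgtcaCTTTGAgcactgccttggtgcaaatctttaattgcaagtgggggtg
Sp5, at 104 bases: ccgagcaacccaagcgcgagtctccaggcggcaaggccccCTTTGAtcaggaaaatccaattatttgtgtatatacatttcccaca
Dkk1, at 117 bases: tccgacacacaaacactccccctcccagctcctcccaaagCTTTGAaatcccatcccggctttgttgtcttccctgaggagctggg
Dkk1, at 174 bases: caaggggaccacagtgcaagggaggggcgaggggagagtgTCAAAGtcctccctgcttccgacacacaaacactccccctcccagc
Tnfrsf19, at 201 bases: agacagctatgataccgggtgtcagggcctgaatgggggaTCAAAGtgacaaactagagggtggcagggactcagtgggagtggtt

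The machinery that carries the signal was mostly level. Of 23 measured genes of Wnt transduction, 12 were higher and 11 lower, none reached 2-fold, and the median log2 difference was 0.05. The 1 member past 1.5-fold was Tcf7l1, the TCF factor that acts mainly as a repressor of pluripotency genes in ES cells, which went from 1029 to 537 (log2 difference -0.94). Tle4, a Groucho corepressor, went from 1781 to 1287 (log2 difference -0.47), while Tle3 of the same family differed by 0.20. Pygo1, a nuclear coactivator of β-catenin, went from 36.6 to 54.5 (0.57). The transcripts of β-catenin itself (Ctnnb1, log2 difference 0.14), of the drug's target Gsk3b (0.11), of Apc (0.08) and of Axin1 (-0.04) lay close to 0. β-catenin protein was not measured here.

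Ligands, receptors and secreted modulators of Wnt signalling were measured for all 51 list members, of which 28 were higher and 23 lower, with a median log2 difference of 0.02. The receptor gene Fzd10 went from 88.4 to 195 (log2 difference 1.14) and Rspo3, a secreted amplifier of Wnt signalling, from 45.1 to 91.9 (1.03). These were the 2 members at least 2-fold higher, beside 0.185% of all genes. With a constant of 64 Fzd10 stood at 0.835 and Rspo3 at 0.59, both under 2-fold. Among the ligands, Wnt5b went from 51.1 to 99.4 (log2 difference 0.96) and Wnt8a, a ligand of the early epiblast, from 73.0 to 138 (0.92). Wls, which escorts Wnt proteins to the cell surface, differed by 0.75, Porcn, which attaches their lipid, by 0.44, and the antagonist Dkk4 by 0.56. Ror1 and Fzd2, both receptors, were lower, with log2 differences of -0.73 and -0.64. Wnt3 and Wnt3a, ligands of the forming streak, lay at -0.10 and 0.13.

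The primitive streak list held the largest positive difference of all genes. Mixl1, a homeobox factor of the nascent mesendoderm, went from an intensity of 33.0 to 321, a log2 difference of 3.28. Beside it, Evx1, a homeobox gene of the posterior streak, went from 140 to 228 (0.71). Of 18 measured members 11 were higher and 7 lower, 3 were at least 2-fold higher (Mixl1, Cdx1 and Sp5), and the median log2 difference was only 0.08. Over all genes 0.185% were at least 2-fold higher. Cdx1 and Sp5 also stand in the Wnt target list. Hand1 and Fgf17 were lower, at -0.72 and -0.69. Eomes and Gsc, streak and organiser factors named here after their values were seen, lay at 0.04 and -0.16. Brachyury (T) was not analysed here. The list as a whole thus did not move together on these arrays.

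The caudal list held a few large differences. Among them were those of Cdx1 and Cdx2, which also stand in the Wnt target list. Cdx1 stands in the streak list too. Hoxb1, the earliest Hox gene of the posterior epiblast, went from 27.2 to 87.7 (log2 difference 1.69), and Hoxd9 from 22.9 to 57.5 (1.33). Both were dim without CHIR, and with a constant of 64 their log2 differences were 0.85 and 0.57. Nkx1-2, a homeobox gene of the caudal epiblast, went from 64.04 to 128 (1.00), with its probe sets at 0.18 and 1.83. Of 21 measured members 15 were higher, 5 of them at least 2-fold, beside 0.185% of all genes. The other 6 were lower, none of these by 1.5-fold, and the median log2 difference was 0.12. It was 0.86 over the 8 members at or above the median of genes in mean log2 intensity over all 6 arrays. That mean takes in EpiLC with CHIR, where Hoxb1, 1 of the 8, stood at 2008. The 8 members were therefore not chosen on the 2 mESC arrays alone. Intensities of the other Hox members on both arrays lay within 1.5-fold of each other.

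**Figure D2:**
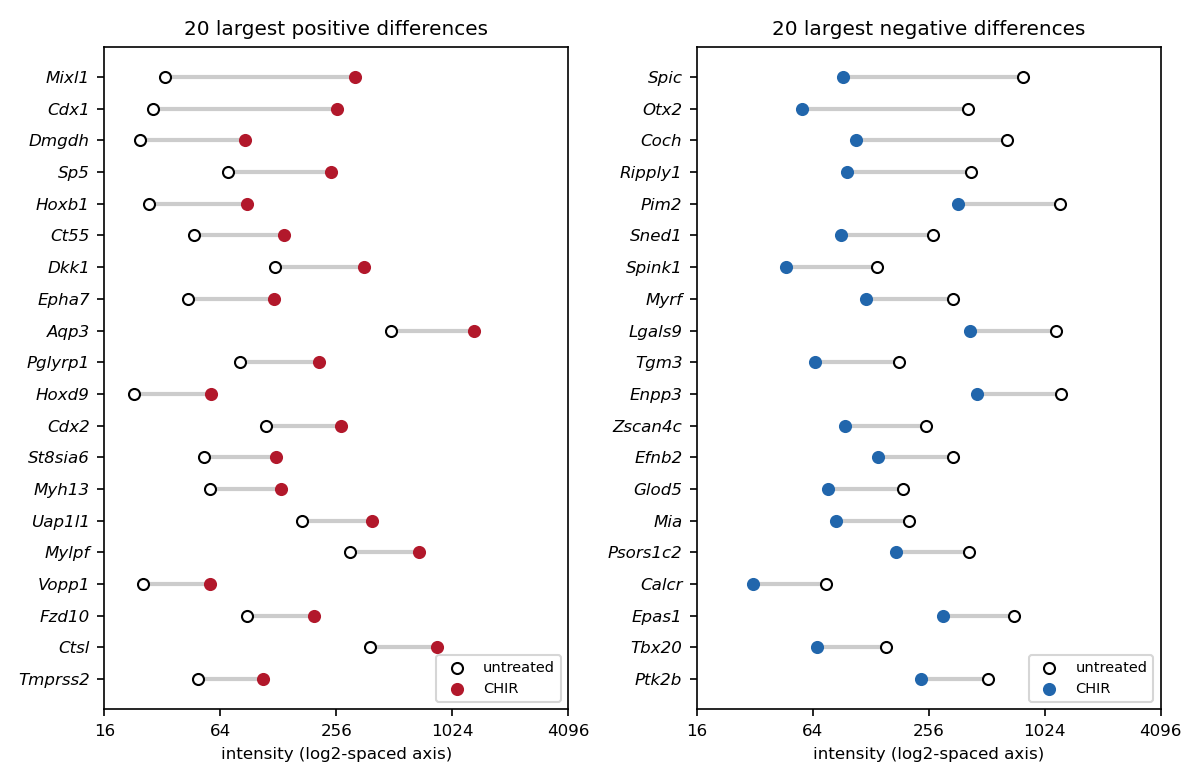
Intensity (x axis, log2-spaced) on the untreated array (open circles) and the CHIR array (filled circles) for the 20 genes with the largest positive (left) and negative (right) log2 differences, 1 array each, without the predicted, clone, small RNA and olfactory receptor symbols that the naming rule passes over. Mixl1 and Cdx1 span the widest gaps on the left, and Spic and Otx2 on the right.

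Genes of the formative epiblast, the state that follows naive pluripotency, were mostly lower. Otx2, the homeobox factor that drives entry into that state, went from an intensity of 410.5 to 56.2, a log2 difference of -2.87. Pou3f1 (Oct6), another factor of that state, went from 122 to 63.7 (-0.94), and Foxd3, a forkhead repressor, from 211 to 116 (-0.85). Grhl2, an epithelial transcription factor of this state, differed by -0.73 and Sall2 by -0.65, both named after their values were seen. Of 17 members 12 were lower, 7 of them at least 1.5-fold, and 5 higher, with a median log2 difference of -0.41. Over all genes 0.974% were at least 1.5-fold lower and 1.46% at least 1.5-fold higher. The 3 members at least 1.5-fold higher were Wnt8a (0.92), N-cadherin (Cdh2, 134 to 227, 0.77) and the Ets factor Etv4 (158 to 262, 0.73). Fgf5, the usual marker of EpiLC, had a log2 difference of -0.02 at intensities near 36. In bulk RNA, fewer cells of a type and less RNA per cell cannot be told apart.

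The enzymes that methylate new DNA sites were lower as well. Dnmt3b went from 2327 to 1289 (log2 difference -0.85), Dnmt3a from 520.1 to 289 (-0.85), and their catalytically inactive cofactor Dnmt3l from 875 to 484 (-0.86). Tet2 and Tet1, which oxidise methylcytosine, differed by -0.47 and -0.27 and Tet3 by 0.21. Of 8 members measured, 6 were lower, 3 at least 1.5-fold, with a median log2 difference of -0.37. Over all genes 0.974% were at least 1.5-fold lower. Dnmt3a and Dnmt3b also stand in the formative list.

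Naive pluripotency genes were near level, with some higher. Of 18 members 11 were higher and 7 lower, none reached 2-fold and the median log2 difference was 0.04. Tbx3, a T-box factor of naive ES cells, went from 574 to 983 (log2 difference 0.78). Tfcp2l1, a self-renewal factor downstream of LIF and of TCF7L1 relief, went from 747 to 1213 (0.70). Gbx2 went from 265 to 424 (0.68), with its probe sets at 0.29 and 1.06. Esrrb, a gene that TCF7L1 represses, went from 357 to 467 (0.39). Klf2 and Klf4, named after their values were seen, differed by 0.08 and 0.02, and Dppa3 by -0.52.

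Of the core pluripotency genes 14 of 15 measured were lower, mostly by little, with a median log2 difference of -0.23. Utf1, a chromatin-associated pluripotency factor, went from 3089 to 2021 (log2 difference -0.61), Dppa4 from 794 to 540 (-0.56) and Dppa2 from 2010.1 to 1539 (-0.39). Pou5f1 (Oct4) went from 1342 to 1234 (-0.12) and Sox2 from 1514 to 1460 (-0.05). Nanog, at 2118 and 2180 (log2 difference 0.04), was the 1 member that was higher. The central factors were thus near the same level with and without CHIR.

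**Figure D3:**
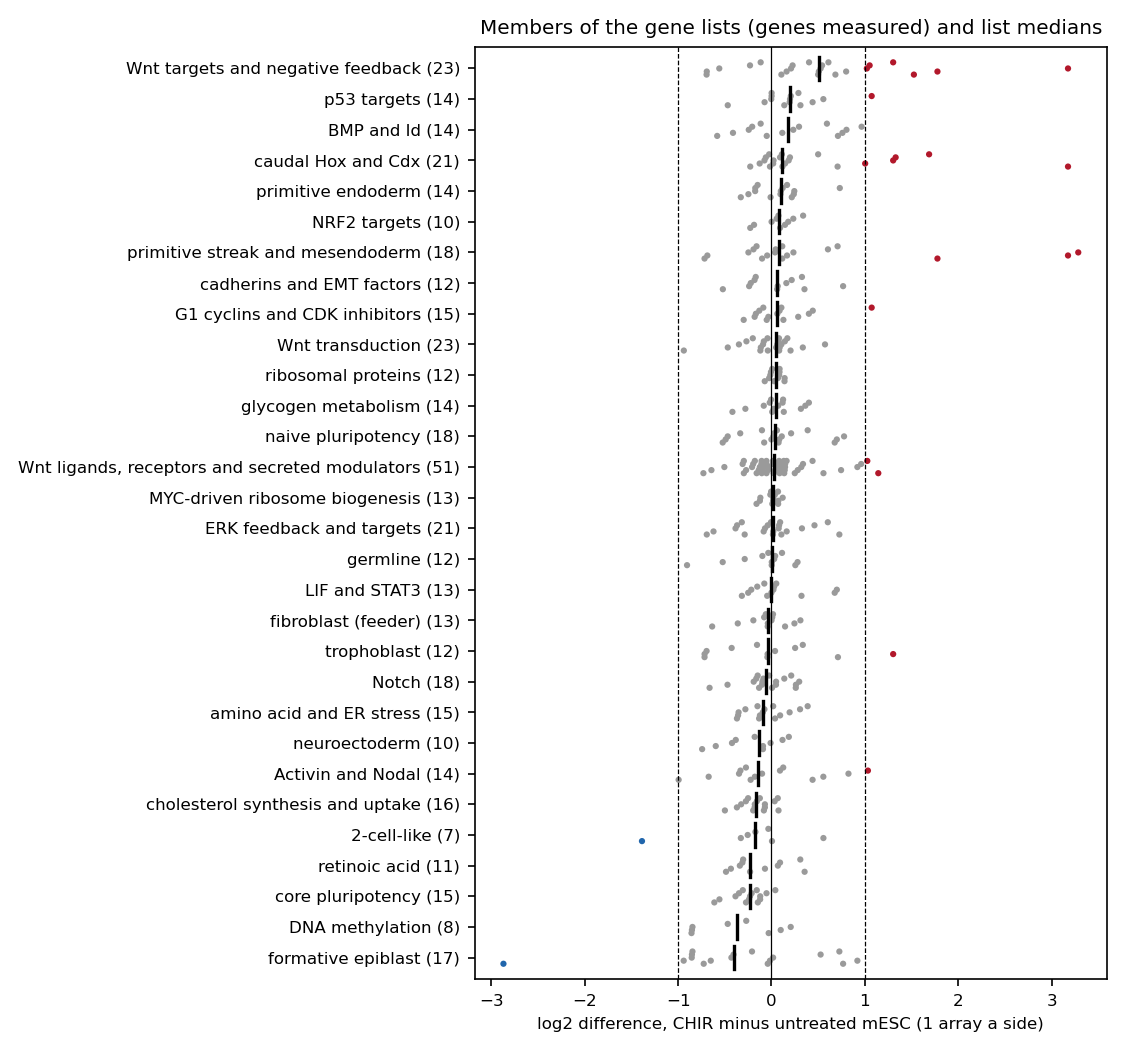
Log2 difference (CHIR minus untreated mESC, x axis) of each measured member of 30 gene lists (rows, number of genes in brackets), with list medians as black bars and the dashed lines at 2-fold. The Wnt target list has the highest median, 0.51, and the formative epiblast list the lowest, -0.41.

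Several of the genes that were lowest with CHIR belong to no pathway list. Spic, an Ets-family factor related to PU.1, went from an intensity of 785 to 91.5, a log2 difference of -3.10 and the largest negative value of all genes. Coch, which encodes the extracellular matrix protein cochlin, went from 650.2 to 107 (-2.61). Ripply1, a corepressor of T-box factors known from somites, went from 425 to 95.8 (-2.15). Each of the 3 was over 4-fold lower with CHIR.

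Pim2, a serine/threonine kinase that supports ES cell self-renewal, went from 1229 to 363 (log2 difference -1.76). Lgals9, a galectin gene, went from 1169.5 to 419.8, a log2 difference of -1.48. Enpp3, an ectonucleotidase, went from 1242 to 458 (-1.44). Epas1, which encodes the hypoxia-inducible factor HIF-2α, went from 712 to 305 (-1.22). Bright genes like these were little affected by the constant, and Pim2 stood at -1.63 with a constant of 64.

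Efnb2, a membrane ligand of Eph receptors, went from 342 to 139 (log2 difference -1.30), and Ptk2b, a focal adhesion family kinase, from 522 to 233 (-1.17). The calcitonin receptor gene Calcr went from 74.5 to 31.4 (-1.25), the myelin regulatory factor Myrf from 341 to 121 (-1.49) and the matrix gene Sned1 from 269 to 89.6 (-1.59). Mycn, which encodes the transcription factor N-Myc and was named after its values were seen, went from 906 to 443 (-1.03). The 20 named genes with the largest negative differences also held Spink1 (-1.56), Tgm3 (-1.45), Glod5 (-1.29), Mia (-1.26), Psors1c2 (-1.26) and Tbx20 (-1.20).

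Several genes outside the Wnt lists were also at least 2-fold higher. Aqp3, an aquaporin that also carries glycerol, had intensities of 496 and 1334 (log2 difference 1.43). Dmgdh, a mitochondrial enzyme of choline breakdown, went from 24.6 to 85.9 (1.80), but with a constant of 64 its difference was 0.88. Epha7, a receptor tyrosine kinase, went from 43.3 to 121 (1.48), and the lysosomal protease gene Ctsl from 385 to 849 (1.14). Tmprss2, a membrane serine protease, went from 48.8 to 107 (1.14). The germ-cell antigen gene Ct55 (1.55), Pglyrp1 (1.36), St8sia6 (1.25), the myosin genes Myh13 (1.22) and Mylpf (1.19), Uap1l1 (1.20) and Vopp1 (1.15) completed the 20 largest positive differences among the symbols that the naming rule keeps. The rule passes over olfactory receptor symbols, and with it Olfr392, at 24.4 and 63.0 (1.37). Grsf1, which encodes an RNA-binding protein of mitochondrial granules, went from 904 to 1907 (1.08), and Cpt1a, the entry enzyme of mitochondrial fatty acid oxidation, from 187 to 406 (1.12). Both were named after their values were seen.

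The miR-302 cluster is shown because its hairpin gene Mir302a was the fifth lowest of all genes by rank, although small RNA symbols stood outside the rule for naming genes and its members were picked after their values were seen. This cluster makes microRNAs abundant in primed pluripotent cells. Its 5 hairpins lie within 580 bases on the plus strand (chr3:127545228-127545807, GRCm38.p6). The array reads the hairpin genes and does not tell the mature arms apart. Mature sequences in RefSeq are given with the seed, bases 2 to 8, in capitals.
miR-302b-3p: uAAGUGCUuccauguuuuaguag
miR-302d-3p: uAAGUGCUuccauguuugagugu
miR-302c-3p: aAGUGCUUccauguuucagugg
miR-367-3p: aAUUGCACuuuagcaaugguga
miR-302a-5p: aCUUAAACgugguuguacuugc

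The 3p arms of miR-302b and miR-302d share the seed AAGUGCU, that of miR-302c carries the same letters shifted by a base, and miR-367-3p has a different seed. Mir302a went from an intensity of 83.9 to 22.8 (log2 difference -1.88) and Mir302c from 51.1 to 21.5 (-1.25). Mir302d went from 60.0 to 31.6 (-0.92), Mir367 from 30.7 to 17.2 (-0.84) and Mir302b from 25.2 to 20.5 (-0.30). All 5 members were lower with CHIR, though the values with CHIR lay near the floor of 16. Each had a higher intensity in untreated EpiLC, Mir302a standing at 333 there. Mir290a, of the other large ES cell microRNA cluster, went from 699 to 647 (-0.11).

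Among signalling pathways beside Wnt, several members of the Activin/Nodal and BMP lists differed, those of Activin/Nodal in both directions. Lefty2 and Lefty1, secreted Nodal antagonists, went from 87.1 to 178 (log2 difference 1.03) and from 79.2 to 140 (0.82). Nodal itself went from 273 to 171 (-0.67) and Inhbb, an activin subunit gene, from 206 to 104 (-0.99). The Activin/Nodal list had 6 members higher and 8 lower, 2 each way by at least 1.5-fold, with a median log2 difference of -0.14. In the BMP list of 14 measured members, 8 were higher, 5 of them at least 1.5-fold. The other 6 were lower, none by 1.5-fold, and the median was 0.17. Msx2, a homeobox target of BMP, differed by 0.96, the ligands Bmp7, Bmp2 and Bmp4 by 0.80, 0.76 and 0.59, and Gata2 by 0.71. Id1, an immediate BMP target, differed by -0.58. BMP4 was in the medium of both arms.

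LIF and STAT3 genes had a median log2 difference of 0.00, with Tfcp2l1 and Gbx2 the 2 members past 1.5-fold. Feedback and target genes of ERK had a median of 0.02, with 11 of 21 higher. Etv4 and the feedback inhibitor Il17rd (0.60) were at least 1.5-fold higher, while Myc (-0.69) and Fos (-0.62) were at least 1.5-fold lower. Notch genes had a median of -0.06 and retinoic acid genes one of -0.23. Lfng, the Fringe enzyme that tunes Notch, differed by -0.66.

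Cell cycle and metabolic lists moved little. Cdkn1a, which encodes the CDK inhibitor p21, went from 553 to 1163 (log2 difference 1.07). It was the 1 member reaching 1.5-fold in each of its lists, the p53 targets (11 of 14 higher, median 0.20) and the G1 cyclins and CDK inhibitors (8 of 15 higher, median 0.06). The p53 targets Plk2 and Bbc3 differed by 0.56 and -0.47. Cholesterol synthesis and uptake genes were lower in 13 of 16 cases, none by 1.5-fold, with a median of -0.17, and Mvk, which encodes mevalonate kinase, went from 320 to 226 (-0.50). Glycogen metabolism, in which GSK3 was first described as the kinase of glycogen synthase, had a median of 0.05, with Gyg at 0.40 and Gys1 at 0.13. NRF2 targets had a median of 0.08, amino acid and ER stress genes one of -0.09, ribosome biogenesis genes driven by MYC one of 0.02 and ribosomal proteins one of 0.05. Cadherins and EMT factors had a median of 0.06, Cdh3 differing by -0.52.

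Markers of other cell types that the culture could hold were compared on the same arrays. A summed intensity follows its brightest members. The summed intensity of 14 primitive endoderm markers was 2079 without and 2057 with CHIR, with a median log2 difference of 0.10, and Pdgfra went from 26.0 to 43.2 (0.73). The 12 trophoblast markers summed to 3634 and 4078 (median -0.04), with 5 higher and 7 lower. Gata2 went from 658 to 1078 (0.71), and Cdx2 was higher as above. Hand1 and Plet1 both differed by -0.72, Ascl2 by -0.69, and Gata3 and Elf5 by -0.04 and -0.15. The 10 neuroectoderm markers summed to 1156 and 918 (median -0.14), with the brightest, Tubb3, from 377 to 250 and Hesx1 at -0.74. The 13 fibroblast markers summed to 1058 and 952 (median -0.04), with the brightest, Acta2, from 317 to 246. Thy1 stood at -0.63 and Col1a1, Col1a2 and Col3a1 at -0.06, 0.02 and -0.04. The 12 germline genes had a median of 0.00, with Mael at -0.90. No marker of these lists was at the floor of 16, and their part in the differences above was not tested.

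Markers of the 2-cell-like state, a rare state of ES cell cultures, summed to 498 without and 338 with CHIR over 7 members. Zscan4c went from 246 to 94.1 (log2 difference -1.39), whereas Zscan4d went from 86.7 to 84.7 (-0.03). The Zscan4 genes are near-identical copies, and how their probes share signal is not known here. The median of the list was -0.17.

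The CHIR response of mESC was set beside that of EpiLC, which shares no array with it. In EpiLC 392 genes (1.77%) reached 2-fold upward and 206 (0.929%) downward, and at 1.5-fold these counts were 1118 (5.04%) and 825 (3.72%). The standard deviation of log2 differences over genes was 0.42 in EpiLC and 0.23 in mESC. Across the 22180 genes, which are not independent replicates, the log2 differences of both states had a Pearson r of 0.30 and a Spearman rho of 0.23. No test of a difference between the states was possible with 1 array a group.

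Of the 41 genes at least 2-fold higher in mESC, 22 (53.7%) were also at least 2-fold higher in EpiLC, where they made up 5.61% of that state's list. In 20 of the 22 the EpiLC difference was the larger, but these 22 were kept for passing 2-fold in EpiLC as well. Over all 41 genes, picked for passing it in mESC, the median log2 difference was 1.05 in EpiLC and 1.14 in mESC. Hoxb1 had a log2 difference of 5.54 in EpiLC (43.0 to 2008) against 1.69 in mESC, Mixl1 4.24 (179 to 3378) against 3.28, and Rspo3 3.95 against 1.03. Dkk1 stood at 3.65 against 1.52, and Sp5 at 2.90 against 1.78. Cdx1 was higher to a like extent in both, at 2.91 and 3.17. The streak list as a whole had a median log2 difference of 1.43 in EpiLC, with 11 of 18 members at least 2-fold higher, against 0.08 in mESC. Hoxb2, named after its values were seen, went from 34.4 to 1102 in EpiLC and from 33.7 to 34.1 in mESC. The log2 difference of Wnt3a was 1.93 in EpiLC and 0.13 in mESC.

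Of the 34 genes at least 2-fold lower in mESC, 12 (35.3%) were at least 2-fold lower in EpiLC, 5.83% of that state's list. Within 1.5-fold in EpiLC lay 19 of the 34, 11 of the 41 genes higher in mESC, and 91.2% of all genes. Over all 34, picked in mESC, the median log2 difference was -0.47 in EpiLC and -1.26 in mESC. Otx2 stood at -1.73 in EpiLC (1025 to 309.7) and Pim2 at -1.70. Enpp3 (-2.90), Calcr (-2.86), Sned1 (-2.66) and Mycn (-1.96) had the larger difference in EpiLC. Spic, Coch and Ripply1 had intensities of 72.4, 63.2 and 96.3 in untreated EpiLC, near or under those of mESC with CHIR, and their EpiLC log2 differences were 0.09, 0.13 and -0.19. Of the 19 genes within 1.5-fold, 10 had an untreated EpiLC intensity at or below that of mESC with CHIR. No gene at least 2-fold apart in mESC was at least 2-fold apart the other way in EpiLC.

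**Figure D4:**
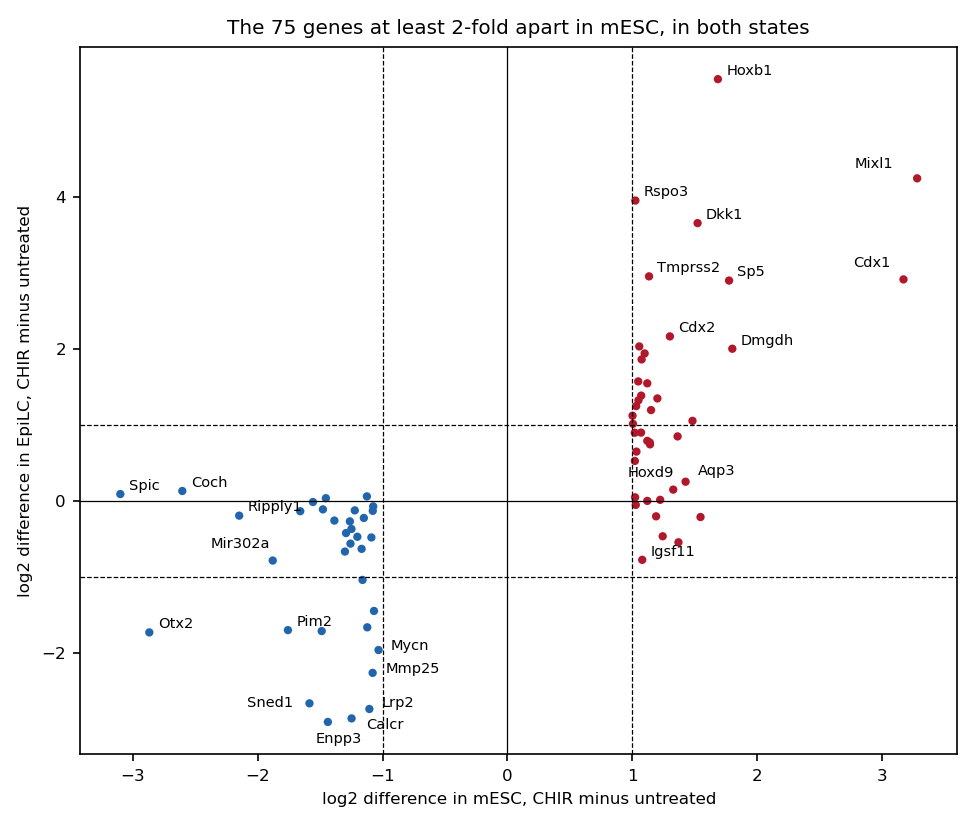
Log2 difference with CHIR in mESC (x axis) and in EpiLC (y axis) for the 75 genes at least 2-fold apart in mESC, 1 array a side in each state, with dashed lines at 2-fold. Red points, higher in mESC, reach 5.54 in EpiLC (Hoxb1), and the blue points of Spic, Coch and Ripply1 lie near 0 in EpiLC.

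The third mESC array, CHIR with PD, shares its controls with this comparison, so its values are only set side by side. Sp5 had intensities of 69.8 untreated, 239 with CHIR and 221 with CHIR and PD, and Axin2 182, 368 and 319. The values of these 2 Wnt targets with both inhibitors were close to those with CHIR. Dkk1 (124, 355 and 619.8) and Aqp3 (496, 1334 and 2738) were highest with both inhibitors.

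Other genes had a different order. Mixl1 stood at 33.0, 321 and 33.6 on the 3 arrays, Hoxb1 at 27.2, 87.7 and 31.8, and Cdx2 at 111, 273 and 111. All 3 were near their untreated level with both inhibitors, and so was the Wnt target Nkd1, at 46.1, 74.1 and 44.9. Lef1, at 435, 627 and 159, was below it. Cdx1, at 28.6, 258 and 111, lay in between, and Nt5e, an ectonucleotidase gene named after its values were seen, went from 119 and 247 to 52.9.

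Of the genes lower with CHIR, Otx2 (410.5, 56.2 and 40.2), Pim2 (1229, 363 and 174), Coch (650.2, 107 and 63.4) and Enpp3 (1242, 458 and 87.6) were lowest with both inhibitors. Spic went the other way, at 785, 91.5 and 1638, above its untreated level. Calcoco2, an autophagy receptor gene named after its values were seen, had the same order at 363, 164 and 1412. Tcf7l1 stood at 1029, 537 and 797.

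**Figure D5:**
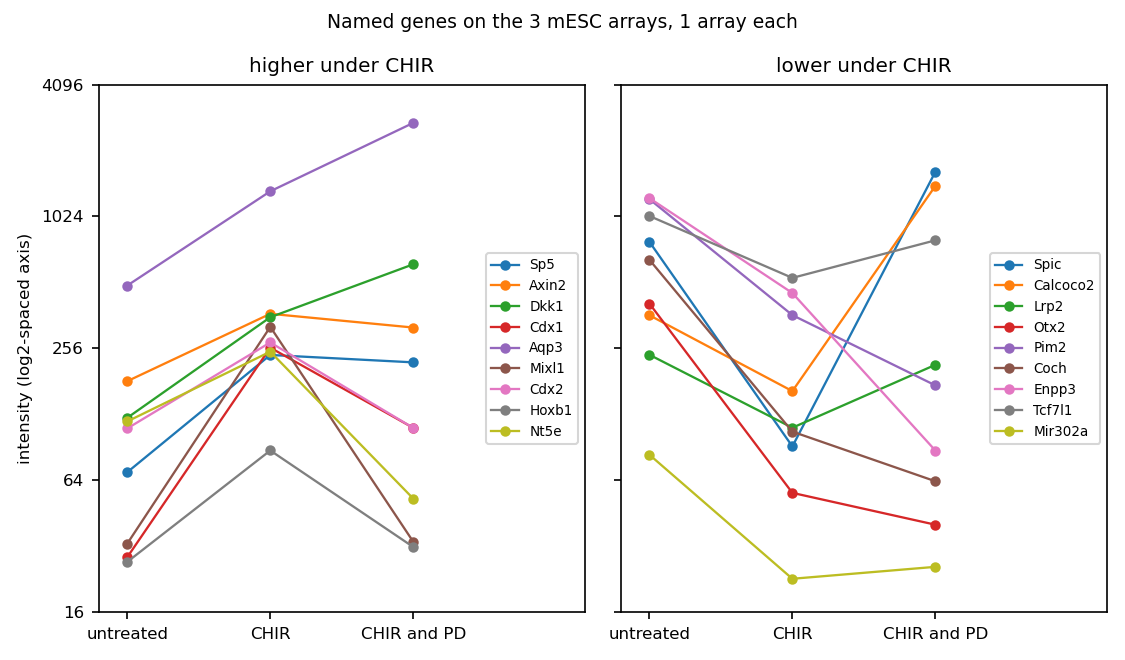
Intensity (y axis, log2-spaced) of named genes on the untreated, CHIR, and CHIR and PD arrays of mESC (x axis), 1 array each, for 9 genes higher (left) and 9 lower (right) with CHIR. Lines join the values of 1 gene, Mixl1 returning to 33.6 and Spic reaching 1638 on the third array.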

How the data were processed

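Total RNA was labelled for 6 Affymetrix arrays of the Mouse Gene 2.0 ST design, and per the design text among the labels the values were processed in GeneSpring GX 11.5. The deposited values are normalised linear intensities with a floor of 16. The normalisation method is not given in the sources used here, and a floor makes the differences of dim genes too small. Of 33793 probe sets, 23521 had 1 gene symbol in the platform annotation, 1814 several and 8458 none. Only the first kind was kept, and the mean log2 intensity was taken where a symbol had several (22180 genes, 1082 with several probe sets). Differences are log2 of CHIR minus log2 of untreated, with thresholds of 2-fold and 1.5-fold and no test, since each group has 1 array.

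Named genes are the 20 largest differences each way (passing over predicted, clone, small RNA and olfactory or vomeronasal receptor symbols), all members of 3 Wnt lists, up to 6 members of each other list by size of difference, and the markers. Other named genes were picked after their values were seen. The 30 lists (477 genes, 444 measured) and the members were chosen with earlier results of these data known, so they describe and support nothing. A promoter or microRNA sequence is printed only where the RefSeq tables (GRCm38.p6) hold it. The calculation was tested on simulated data. Alternatives were a constant of 4 or 64 for the floor, centring, quantile normalisation, genes at or above the median intensity alone, the brightest probe set and a 1.5-fold threshold. Genes were placed against that median by their mean log2 intensity over all 6 arrays. Python 3.11.15, numpy 2.4.6, pandas 2.3.3 and matplotlib 3.10.9 were used.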

Additional observations from a re-analysis of the deposited data

Results flagged for a closer look

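In all, 15 genes differed with CHIR in opposite directions in mESC and EpiLC, by at least 2-fold in one state and at least 1.5-fold in the other. With 1 array a group the difference between the states was not tested. Higher in mESC and lower in EpiLC were Aim2, a sensor of cytosolic DNA (log2 difference 0.86 in mESC and -1.18 in EpiLC), Cnpy1 (0.96 and -1.56), the cell adhesion gene Igsf11 (1.08 and -0.77) and the guidance gene Sema3c (0.75 and -1.06). Lower in mESC and higher in EpiLC were the mitochondrial gene Ndufa4l2 (-0.88 and 3.25), the interferon-inducible Ifitm1 (-0.83 and 1.87), the chemerin receptor gene Cmklr1 (-0.81 and 1.12) and Cyp2s1 (-0.76 and 1.19). The same held for Cpne5 (-0.66 and 2.19), the lysophosphatidic acid receptor gene Lpar1 (-0.64 and 1.04), the homeobox gene Meis2 (-0.62 and 2.10) and Rasgrp3 (-0.62 and 2.75). It also held for Ccno (-0.62 and 1.92), Gna14 (-0.61 and 2.37) and Optc (-0.59 and 1.73).

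Among 10272 probe sets with no symbol or several, which the gene values leave out, 19 were at least 2-fold higher with CHIR in mESC, with log2 differences from 1.01 to 2.51. Another 5 were at least 2-fold lower, from -1.02 to -1.74. No gene is named for them.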

How the results depend on the processing

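No paired analysis was possible because each group has 1 array, and leaving out a replicate was not possible for the same reason. With 16 subtracted and a constant of 4 added, 154 genes were at least 2-fold higher, 146 lower and 58 the same way in both states. The list medians were then 0.65 for Wnt targets and -0.34 for 2-cell-like genes. With 64 the counts were 11, 16 and 13, and the medians 0.27 for Wnt targets and -0.28 for the formative list. At 1.5-fold the counts were 323, 216 and 217. Over the genes at or above the median intensity the medians were 0.86 for caudal Hox and Cdx, 0.033 for BMP, -0.17 for cadherins and EMT factors, -0.28 for neuroectoderm and -1.39 for 2-cell-like genes, of which 1 gene was left. Mean log2 intensity over all 6 arrays decided which genes were at or above that median, so EpiLC values could let a gene in. No other count moved by over 1.5 times and no other list median by over 0.125, the median absolute log2 difference of all genes. Of the 75 genes past 2-fold, 75 stayed so after centring, 74 after quantile normalisation, 75 with the brightest probe set, 75 with a constant of 4, 27 with 64, and all 57 of those at or above the median intensity. Every one kept its direction, but most of these counts were fixed in advance. For a gene with 1 probe set, a constant of 4 can only enlarge its difference, and no constant can turn its direction. Taking genes at or above the median intensity leaves their values as they were. The brightest probe set can alter only the 3 of the 75 genes with more than 1 probe set. The constants of 4 and 64 show only how the log2 differences change with the constant. How far low signal over background limits the dim genes was not measured.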
